A study of Mus musculus with 4 samples.

Results

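The 8 mitochondrial tRNAs encoded on the light strand of mouse mitochondrial DNA were examined for 5-methylcytosine (m5C): TrnQ (glutamine), TrnA (alanine), TrnN (asparagine), TrnC (cysteine), TrnY (tyrosine), TrnS1 (the serine tRNA for UCN codons), TrnE (glutamate) and TrnP (proline). They were described through the minus-strand cytosines inside the annotated genes, 75 of the 5988 positions listed in the authors' table. RNA came from mouse liver lysate enriched for mitochondria, in 2 wild-type libraries and 2 libraries labelled NSUN2-/-, here called the knockout. Age, strain and the number of animals behind each genotype are not in the labels, and p-values then measure only a spread that may be technical. Bisulfite turns unmethylated cytosine into uracil, and a cytosine still read as cytosine counts as methylated. The methylation level is the percentage of such reads, and every read covering a cytosine is a call.

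Mitochondrial DNA is transcribed in both directions into long precursors, and tRNAs are cut out from between the other genes. Most mitochondrial tRNAs come from one precursor, and the 8 described here come from the opposite one, together with the mRNA of ND6. TrnA, TrnN, TrnC and TrnY lie side by side, with the origin of light-strand replication between TrnN and TrnC. NSUN2 is an RNA methyltransferase, and most of its known tRNA targets, though not all, sit where the variable loop meets the T arm. The series title asks about this activity of NSUN2 in mitochondria. The Nsun2 transcript is not in the table. The genotype labels could be read only from heavy-strand tRNA sites, such as TrnH 11588, which was methylated in 271 of 272 wild-type and 6 of 38 knockout reads.

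Depth at the light-strand tRNAs was uneven between libraries. They held 6381 and 1301 calls in wild type replicates 1 and 2, and 9861 and 826 calls in knockout replicates 1 and 2. These calls were 7.09%, 2.86%, 9.91% and 0.182% of all calls of the respective library. Knockout replicate 2 stood apart, being the library with the most calls in all (453489) and the fewest in these tRNAs. Knockout values therefore came mostly from knockout replicate 1.

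Of the 8 light-strand tRNAs, 5 had no cytosine in the window taken here as the variable region, next to which NSUN2 is known to act. The 8 tRNAs held 8 to 11 listed cytosines each, 13.7% of their summed length of 549 nucleotides, and listed guanines made up 22.8%. Over the 12 heavy-strand tRNAs whose positions all carry a strand, cytosines made up 16.6% and guanines 14.6% of the length. Of the 75 cytosines, 35 lay within the last 20 nucleotides, toward the 3′ end. The variable region was taken as the window from 20 to 29 nucleotides before the last annotated nucleotide. Only 3 light-strand tRNAs had a listed cytosine in this window, against 8 of those 12 heavy-strand tRNAs. The number 3 depends on the bounds. It became 6 with a window of 18 to 31 nucleotides, and 3 or 5 with the annotation shifted by 1 nucleotide. The heavy-strand count of 8 was not recomputed with these bounds, so the contrast is given for the 1 window only. These counts describe the sequences, with no test. Positions are given as in the authors' table, and nucleotides are counted from the higher coordinate, the 5′ end.

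The window cytosines were TrnN 5114 (nucleotide 46, 25 before the last), TrnY 5285 and 5287 (nucleotides 42 and 40, 25 and 27 before the last) and TrnE 14095 and 14093 (nucleotides 45 and 47, 24 and 22 before the last). In TrnN and TrnY these 3 cytosines had no read in any library. In TrnE each of the 2 had 1 unmethylated read in wild type replicate 1 and none elsewhere. The window of the light-strand tRNAs was thus covered by 2 calls in all, too few to detect methylation. Of the 18 heavy-strand window cytosines, 8 had enough reads to test and 10 did not. In wild type 3 of the 8 were high and the other 5 were at most 0.957%. The high ones were TrnH 11588 and 2 more. TrnS2 11646, which lies 25 nucleotides before the last, was methylated in 187 of 264 wild-type reads and 1 of 156 knockout reads. TrnM 3888, at the same distance, was methylated in 50 of 61 wild-type reads and 0 of 36 knockout reads.

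**Figure D1:**
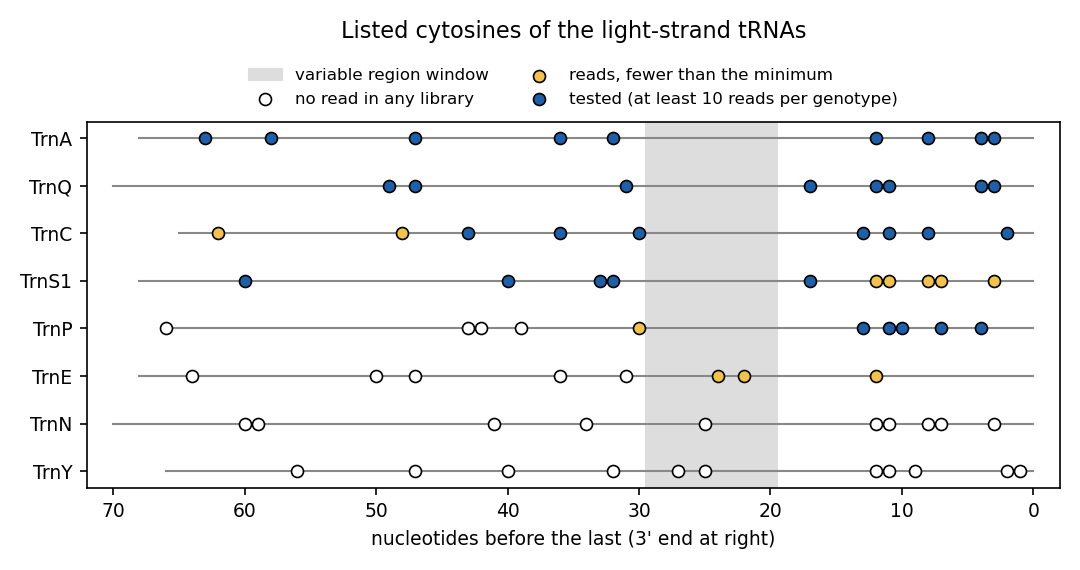
Each row is a light-strand tRNA and each circle a listed cytosine, placed by its number of nucleotides before the last annotated one, with the 3′ end at the right. Grey marks the variable region window, which holds 5 cytosines in TrnE, TrnN and TrnY, none of them with enough reads to test.

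TrnQ, TrnA, TrnC, TrnS1 and TrnP had no cytosine in the window, and the nearest ones upstream of it lay 30 to 32 nucleotides before the last. In TrnQ this was 3803 (nucleotide 40, 31 before the last), with no methylated read among 138 and 44 in the wild-type libraries, and 1 of 169 and 0 of 74 in the knockout libraries. In TrnC it was 5222 (nucleotide 36, 30 before the last), where all 56 wild-type and 47 knockout reads were unmethylated. In TrnP it was 15386 (nucleotide 37, 30 before the last), where none of 7 wild-type and 31 knockout reads was methylated. These 3 cytosines lay just outside the window, and 2 of the 3 had enough reads to test.

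Reads reached the 8 tRNAs very unevenly. TrnA was the deepest of all 22 mitochondrial tRNAs in each library, with 1142 and 212 reads at its deepest cytosine in wild type replicates 1 and 2, and 1937 and 134 in knockout replicates 1 and 2. TrnQ followed among the light-strand tRNAs in every library, with 148 and 47 reads in wild type and 178 and 76 in the knockout. TrnS1 had 131 and 43 reads in wild type, and 146 and 3 in the knockout. TrnC had 51 and 11 reads in wild type, and 47 and 2 in the knockout. TrnQ, TrnS1 and TrnC thus had close read numbers in wild type replicate 1 and knockout replicate 1, and knockout replicate 2 gave TrnS1 and TrnC next to nothing. TrnP, the promoter-proximal tRNA of this strand, had 10 and 4 reads in wild type and 36 and 2 in the knockout, so the genotypes overlapped. TrnE had 1 read at most, and TrnN and TrnY had 0 in all 4 libraries.

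**Figure D2:**
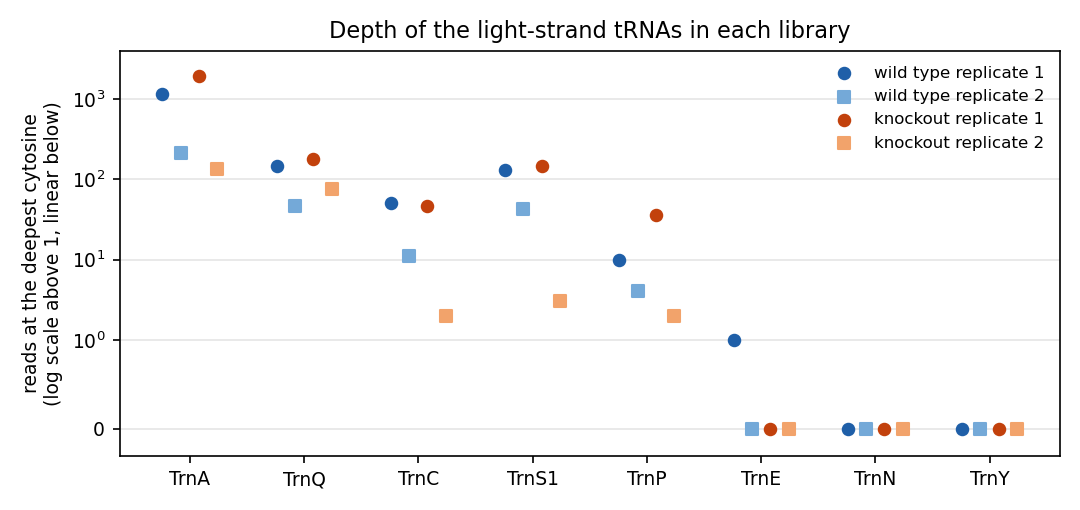
Points give the reads at the deepest cytosine of each light-strand tRNA in each library, on an axis that is logarithmic above 1 and linear below. TrnA lies highest in every library, and TrnN and TrnY sit at 0 in all 4.

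Sense reads outnumbered reads of the opposite strand wherever a tRNA was covered. TrnA had 15075 sense calls and 88 calls at the cytosines opposite to it. For TrnQ these numbers were 1722 and 3, for TrnC 670 and 22, for TrnS1 601 and 13, and for TrnP 298 and 32. TrnY was the exception, with 0 sense calls and 294 calls on the opposite strand, of which 116 and 61 came from wild type replicates 1 and 2, 117 from knockout replicate 1 and 0 from knockout replicate 2. Of those 294 calls, 1 was methylated. TrnN had 4 calls on the opposite strand and TrnE 0. The 27 positions without a strand in the table all lay outside these 8 genes. The last nucleotides of TrnQ overlap TrnI on the other strand, and no listed cytosine of TrnQ lies in that overlap.

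Coverage along the tRNAs fell into 2 shapes, each seen in both genotypes. TrnA was read mainly at its 3′ end. At nucleotide 37 (position 5050) it had 27.4% and 27.4% of its deepest cytosine's reads in wild type, and 18.9% and 15.7% in the knockout. At nucleotide 11 (position 5076) only 1.23%, 2.36%, 0.878% and 0% remained, in the same order of libraries. TrnC and TrnP shared this shape. At nucleotide 23 TrnC had 49.0% and 54.5% of its peak in wild type and 29.8% in knockout replicate 1, and TrnP had no read at nucleotide 28 or further upstream in any library.

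TrnS1 and TrnQ were read less toward the 3′ end, although TrnQ has no listed cytosine before nucleotide 22 to show its 5′ end. In TrnS1 the reads were highest at nucleotide 9 (position 6930) and dropped at nucleotide 29 to 31.3% and 53.5% in wild type and 39.7% in knockout replicate 1. By nucleotide 66 they were at 3.82%, 0% and 2.74%. In TrnQ the peak was at nucleotide 24 (position 3819) in each library, and at nucleotide 68 (position 3775) there remained 8.78% and 4.26% in wild type and 7.30% and 2.63% in the knockout. Knockout replicate 2 differed within TrnQ, with 30.3% of the peak at nucleotide 22 (position 3821), where the other libraries had 93.6% to 97.2%, and with 80.3% at nucleotide 54 (position 3789), where they had 45.9% to 46.8%. Libraries of fewer than 10 reads at the peak are left out of these shares.

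**Figure D3:**
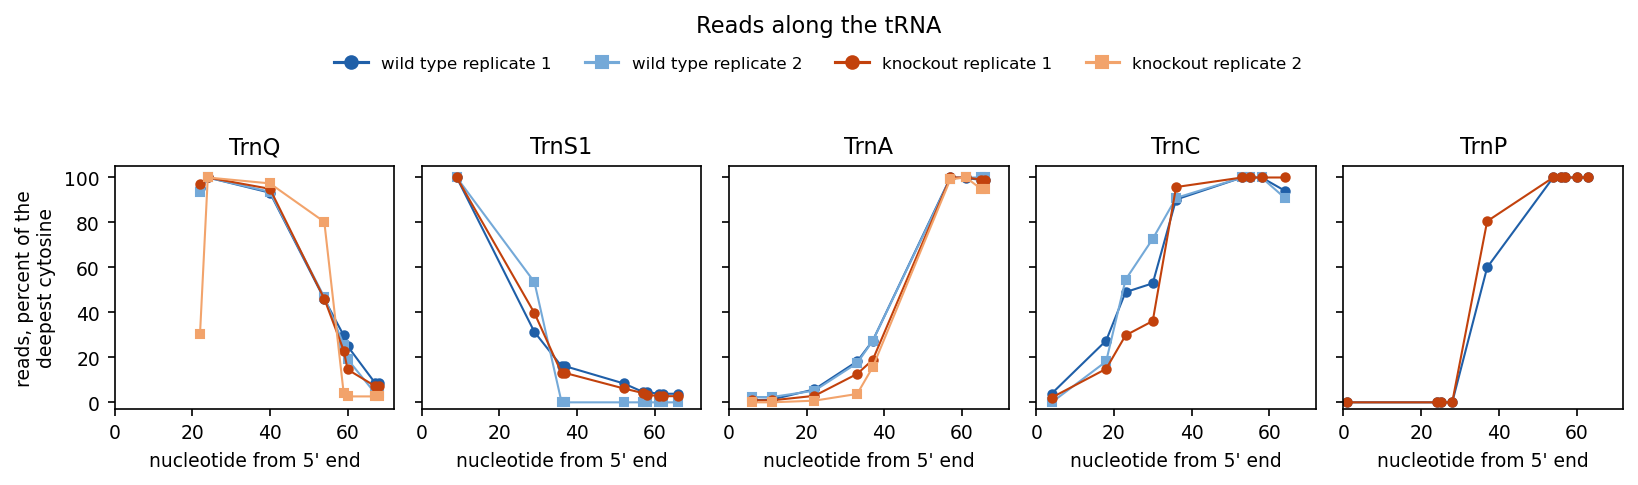
Each panel gives the reads at each cytosine of a tRNA as a percentage of that library's deepest cytosine, against the nucleotide counted from the 5′ end. Libraries with fewer than 10 reads at the peak are not drawn. TrnA, TrnC and TrnP are covered toward the 3′ end, and TrnQ and TrnS1 lose reads toward it.

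Methylated reads were rare among the light-strand calls, of which TrnA held 15075. Cytosines with few reads could not show a low level. Over all 75 cytosines, 13 of 18369 calls were methylated, at 6 cytosines in TrnA, TrnQ and TrnS1. The summed level was 0.0940% in wild type replicate 1 (exact 95% interval 0.0345% to 0.205%), 0.0769% in wild type replicate 2 (0.00195% to 0.428%), 0.0608% in knockout replicate 1 (0.0223% to 0.132%) and 0 of 826 calls in knockout replicate 2 (upper bound 0.446%). Averaged over libraries, wild type had 0.0854% ± 0.0121 (SD, n = 2) and the knockout 0.0304% ± 0.0430 (SD, n = 2). The difference of -0.0550 percentage points had a two-sided exact permutation p of 0.333, the smallest that 2 against 2 libraries allow. Mitochondrial mRNAs, at cytosines with at least 10 reads per genotype, gave a level for comparison, in which m5C and unconverted cytosine cannot be told apart. It stood at 0.174% and 0.0728% in wild type and 0.0793% and 0.0779% in the knockout. Intervals cover counting error only. Those of the summed levels treat calls that share a read as independent, so they may be too narrow.

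The heavy-strand tRNAs, without their variable region window and the anticodon of TrnM, also had low levels. These were 0.149% and 0.151% in wild type, and 0.256% and 0 in the knockout. The light-strand level was lower than this in 3 of the 4 libraries and both were 0 in the last, a mean difference of -0.0811 points (two-sided exact sign-flip permutation p = 0.25, in a design of 4 libraries that cannot reach 0.05). Inside the window the heavy-strand tRNAs had 451 of 1454 and 75 of 281 calls methylated in the wild-type libraries, against 8 of 730 and 1 of 49 in the knockout libraries.

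Knockout and wild type were compared to ask whether any light-strand cytosine lost or gained methylation without NSUN2. At least 10 reads summed over each genotype were found at 34 of the 75 cytosines, in TrnQ (8), TrnA (9), TrnC (7), TrnS1 (5) and TrnP (5), none in the window. Without wild type replicate 1 the rule kept 19 of them and without knockout replicate 1 it kept 9. In edgeR's quasi-likelihood test over all 482 cytosines of the table with such coverage, a cytosine was called if its adjusted p was below 0.05 and the means of the genotypes were 10 or more percentage points apart. Of the light-strand cytosines, 0 were called lower and 0 higher, where 0.622% of all 482 were called lower and 0% higher. None of the 34 had an unadjusted p under 0.05, the smallest being 0.349 at TrnA 5050, and Fisher's exact test and limma also called 0 of the 34 (0.622% and 0.207% of all 482 were called lower by these). The differences of group means ran from -1.22 to 0.296 points. No wild-type group mean passed 1.22% (TrnS1 6910), so under the rule of 10 points a lower call was out of reach at any depth.

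Reads also set how much this comparison could show. Summed reads of the 34 cytosines ranged from 11 to 1353 in wild type and from 10 to 2071 in the knockout. At 19 of them the 95% interval of the difference in summed levels (Newcombe) lay within 10 points of 0, and at 15 it reached further, to -25.9 and 27.8 points at TrnS1 6887. TrnA 5030 gave the tightest limit, with no methylated read among 1353 in wild type and 2070 in the knockout, which allows up to 0.222% and 0.145%. TrnA 5026, with as many reads over the 4 libraries (3423), had 3 methylated ones. Most reads of a genotype came from its replicate 1, and replicate 2 alone would allow up to 1.42% in wild type and 2.26% in the knockout at TrnA 5030.

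The deepest cytosines of TrnQ, TrnS1, TrnC and TrnP had no methylated read. TrnQ 3819 had 195 wild-type and 254 knockout reads, which allows up to 1.54% and 1.18%, and replicate 2 alone would allow 6.38% and 3.95%. TrnS1 6930 had 174 wild-type and 149 knockout reads, which allows up to 1.72% and 2.01%, and wild type replicate 2 alone would allow 6.98%. TrnC 5200, 5203 and 5205 had 62 wild-type and 49 knockout reads each, which allows up to 4.84% and 6.12%, and wild type replicate 2 alone would allow 27.3%. TrnP 15360, 15363, 15366, 15367 and 15369 had 14 wild-type and 38 knockout reads each, which allows up to 21.4% and 7.89%, and wild type replicate 2 had 4 of those reads. At TrnS1, TrnC and TrnP knockout replicate 2 had 3 reads or fewer, so their knockout limits rest on knockout replicate 1. In TrnE the deepest positions, the 2 window cytosines and 14083, had 1 read each.

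The 6 cytosines with methylated reads are given per library, wild type replicates before knockout replicates. TrnA 5021 (nucleotide 66) had 1 of 1129 and 0 of 212 reads methylated, then 2 of 1917 and 0 of 127. TrnA 5022 (nucleotide 65) had 1 of 1129 and 1 of 212, then 2 of 1919 and 0 of 127. TrnA 5026 (nucleotide 61) had 2 of 1140 and 0 of 212, then 1 of 1937 and 0 of 134. At these 3 cytosines of the TrnA 3′ end the genotypes overlapped and no library passed 0.472%. TrnA 5050 (nucleotide 37) had 1 of 313 and 0 of 58, then 0 of 366 and 0 of 21. TrnS1 6910 (nucleotide 29) had 1 of 41 and 0 of 23, then 0 of 58 and 0 of 3. The single read at TrnS1 6910 gave 2.44% (exact 95% interval 0.0617% to 12.9%), the highest level of any light-strand cytosine in a library with at least 10 reads there. The sixth, TrnQ 3803, had its single methylated read in knockout replicate 1, as given above. Each tRNA's cytosines share reads and are not independent.

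**Figure D4:**
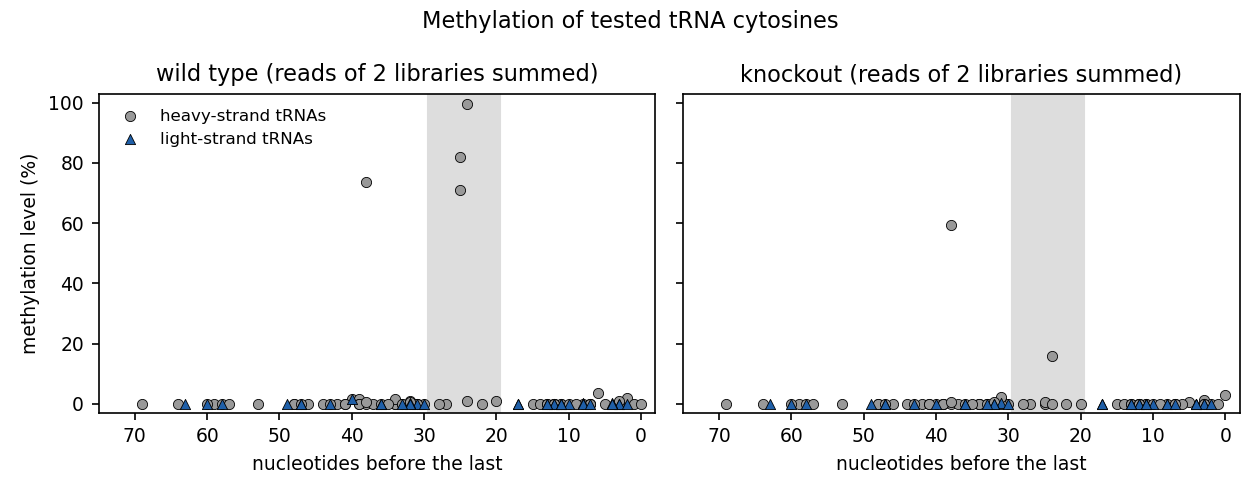
Methylation level of tRNA cytosines with at least 10 reads per genotype, from reads summed over the 2 libraries of a genotype, against the distance from the last nucleotide (window in grey). Light-strand cytosines (triangles) do not exceed 1.56% in wild type or 0.412% in the knockout, and none lies in the window, where 3 heavy-strand sites are high in wild type.

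The summed light-strand share of the tRNA calls differed between genotypes more than between libraries of a genotype, which did not hold for each of its parts. Light-strand tRNAs took 43.0% and 44.0% of the sense tRNA calls in wild type replicates 1 and 2, and 70.9% and 72.4% in knockout replicates 1 and 2. The groups did not overlap. The means were 43.5% ± 0.739 (SD, n = 2) and 71.6% ± 1.08 (SD, n = 2), a difference of 28.2 points, with a two-sided exact permutation p of 0.333, the smallest that 2 against 2 libraries allow. TrnA, the largest contributor, took 34.7% and 32.6% of the sense tRNA calls in the wild-type libraries. It took 60.4% and 48.0% in the knockout libraries, again without overlap. The other light-strand tRNAs together took 8.27% and 11.4% in wild type and 10.4% and 24.4% in the knockout, which overlap. TrnQ averaged 5.10% ± 1.49 (SD, n = 2) over wild-type libraries against 13.1% ± 11.5 (SD, n = 2) over knockout libraries, the latter from 4.99% in knockout replicate 1 and 21.3% in knockout replicate 2, so here the genotypes overlapped. TrnC took 2.12% and 2.33% in the wild-type libraries and 1.95% and 1.23% in the knockout libraries, lower in the knockout and without overlap, with 14 calls behind the last value. TrnS1 took 1.70% and 2.23% in the wild-type libraries and 1.97% and 0.789% in the knockout libraries, which overlap each other and the values of TrnC. TrnP accounted for 0.544% ± 0.236 (SD, n = 2) of wild-type and 1.28% ± 0.318 (SD, n = 2) of knockout sense tRNA calls, from 77 and 221 calls. Both knockout libraries lay above the wild-type ones, though knockout replicate 2 (1.05%) had only 12 of these calls. Such separation was not particular to light-strand tRNAs. TrnH had 18.8% and 17.7% in wild type against 3.11% and 2.45% in the knockout. TrnS2 had 17.0% and 14.3% against 10.9% and 5.08%. TrnM, TrnG and TrnK were also lower in both knockout libraries, and TrnF, TrnV, TrnL1 and TrnL2 overlapped. Non-overlap of 2 against 2 libraries reaches no exact permutation p below 0.333.

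The higher share depended on what it was set against. As a share of all calls of the library, light-strand tRNAs took 4.98% ± 2.99 (SD, n = 2) in wild type against 5.05% ± 6.88 (SD, n = 2) without NSUN2 (exact permutation test, two-sided, p = 1). Per 100 calls at the mRNA cytosines with at least 10 reads per genotype, light-strand tRNAs had 37.1 and 10.5 calls in wild type and 34.0 and 5.85 in the knockout, which overlap. Heavy-strand tRNAs had 49.3 and 13.4 calls per 100 in wild type and 13.97 and 2.23 in the knockout, so that knockout replicate 1 lay between the wild-type libraries. Without TrnA the light-strand share of the remaining sense tRNA calls was 12.7% and 17.0% in wild type and 26.3% and 46.9% in the knockout. Without TrnA and TrnQ it was 6.88% and 8.61% in wild type and 15.7% and 10% in the knockout, a difference of 5.10 points. Both exclusions were chosen after the values were seen. In RNA from liver lysate enriched for mitochondria, fewer cells and less RNA per cell cannot be told apart. A share also does not show which of its parts changed. Depth moved with the libraries, and its part in this difference was not tested.

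**Figure D5:**
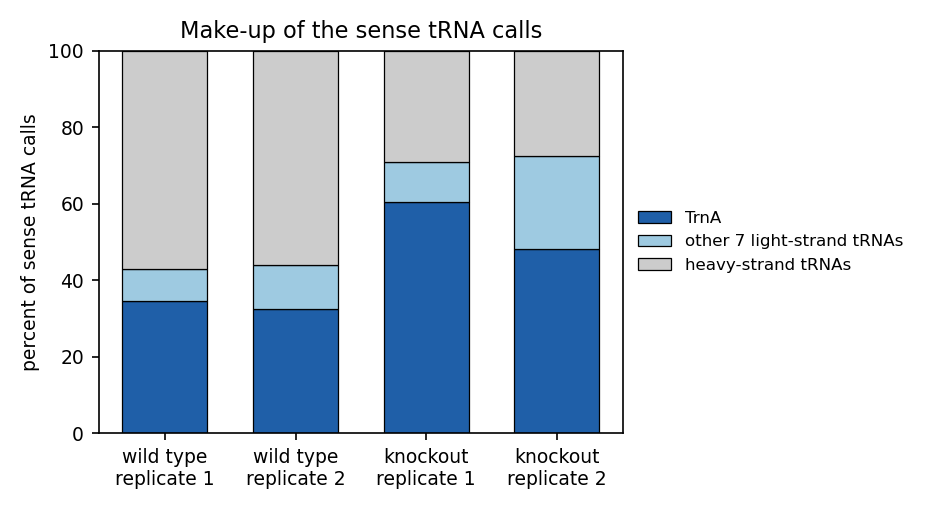
Stacked bars give the percentage of all sense tRNA calls of a library that fell in TrnA, in the other 7 light-strand tRNAs and in the 14 heavy-strand tRNAs. The light-strand parts together reach 43.0% and 44.0% in wild type, and 70.9% and 72.4% in the knockout.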

How the data were processed

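Per the labels' protocols, mouse liver lysate was enriched for mitochondria, and its RNA was depleted of ribosomal RNA, treated with DNase, bisulfite converted in 3 rounds and sequenced as small RNA libraries. Per the submitters' processing notes, Trim Galore and Bismark were used (no version is given in the sources used here), and the named build, GRCh38, is human while the samples are mouse. The authors deposited raw counts, with a column of m5C reads and one of C reads for each library.

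Gene bounds came from RefSeq (GRCm38.p6), and all 8 genes matched the stated positions. The 27 positions without a strand were left out. The level is methylated reads over all reads. Tests per cytosine used edgeR 4.0.16 (R 4.3.3; functions glmQLFit and glmQLFTest; terms for library, methylation state and genotype by methylation state, dispersion without a trend, no replicate block), with Benjamini-Hochberg adjustment over 482 cytosines. edgeR shares its spread over all of these, and knockout replicate 2 adds little where it has few reads. Per-library values were compared by exact permutation tests. Exact (Clopper-Pearson) 95% intervals came from scipy 1.17.1 and Newcombe intervals from statsmodels 0.14.6. For 0 methylated reads at a single cytosine, 3 counts gave the upper limit. The bound for the 0 of 826 calls in knockout replicate 2 is the exact one.

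Cytosines named were all called ones (none), all in the window, all with a methylated read and the deepest of each tRNA, with TrnH, TrnS2 and TrnM sites for comparison. The cytosines nearest the window, and those marking the coverage profile or the interval limits, were named after their values were seen. Members, lists and rules were chosen with earlier results of these data known. Alternatives were Fisher's exact test, limma 3.58.1 on log2((methylated + 0.5)/(unmethylated + 0.5)), a replicate block, other coverage minimums and difference thresholds, other denominators and windows, and leaving out each library. Coverage over genes differed between libraries of a genotype far beyond sampling noise (a chi-square of 3655 on 26 degrees of freedom between the wild-type and 181040 on 27 between the knockout libraries), and all 4 libraries were kept as separate.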

Additional observations from a re-analysis of the deposited data

How the results depend on the processing

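The count of called light-strand cytosines, 0 lower and 0 higher, was 0 under each alternative run: Fisher's exact test, limma, the replicate block, 10 reads in every library, 5 or 30 reads per genotype, a difference threshold of 5 points or none, and each library left out. No light-strand level passed 2.44% in a library with at least 10 reads. Where a difference threshold applied, these observed levels therefore allowed no lower call, though few reads leave higher true levels possible at some cytosines. The number with enough reads, 34, was 9 with 10 reads in every library, 38 at 5 and 19 at 30 reads per genotype, and 9 to 34 with single libraries left out. The light-strand tRNAs with a cytosine in the window, 3, became 6 with a window of 18 to 31 nucleotides (TrnQ, TrnC and TrnP joined) and 3 or 5 with the annotation shifted by 1 nucleotide in either direction, since TrnC and TrnP have one at the border. The difference in level, -0.0550 points, kept its sign, from -0.0854 to -0.0246 without single libraries and -0.00623 without TrnA. The difference from heavy-strand tRNAs, -0.0811 points, ran from -0.108 to -0.0431 without single libraries. The share difference, 28.2 points, ran from 27.4 to 28.9 without single libraries, was 0.0706 against all calls of the library, and 21.8 without TrnA. No label states that equal replicate numbers pair libraries. With the replicate block the share difference had an exact permutation p of 0.5, the smallest possible with 2 pairs, as had the level difference. The correlation of log2 odds deviations of equal numbers was checked over 482 cytosines (r = 0.115), and that of log2 coverage deviations was 0.141. Depth limits the window (2 calls in all) and every cytosine of TrnN and TrnY (0 calls).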
